A study of Mus musculus with 9 samples.

Results

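The 42 genes described here are a set of cell cycle genes, chosen by name for their function but with earlier results of these data known. All 42 had an entry among the 24594 genes of the expression table. Of these, 20 act at the entry into S phase or in DNA replication (cyclin E, E2F, the MCM helicase and its loaders, nucleotide synthesis), and 22 act in G2 or mitosis (cyclins A and B, CDK1, mitotic kinases, spindle motors). Their RNA was read in 9 bulk sequencing libraries of sorted mouse thymocytes that all carried OT-II, a transgenic T cell receptor specific for an ovalbumin peptide. The cells were semimature CD4 single-positive (SP4) thymocytes, sorted as CD4+ CD8- CD69+ Vα2+ Vβ5+ from mixed bone marrow chimeras at 4.7 weeks of reconstitution. Each lethally irradiated host received OT-II control marrow, OT-II marrow lacking Nr4a1 and Nr4a3 (double knockout, DKO) and an excess of non-transgenic wild-type marrow.

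The OT-II control donors were Nr4a1+/+ Nr4a3+/+ F1 offspring of BoyJ and B6.Cg-Tg(TcraTcrb)425Cbn/J, and the DKO donors were Nr4a1-/- Nr4a3-/- on C57BL/6. Donor genotype and donor background therefore cannot be told apart. By the labels, WT hosts were BoyJ (the study's methods also describe WT mice from the same F1 crosses), while RIPmOVA hosts were F1 offspring of BoyJ and a WehiJ line of C57BL/6 with the transgene Tg(Ins2-TFRC/OVA)296Wehi, in which the rat insulin promoter drives a membrane form of ovalbumin, the antigen of the OT-II receptor. By these labels, ovalbumin in the host and host background cannot be told apart either. There were n = 2 OT-II and n = 3 DKO libraries from WT hosts, and n = 2 OT-II and n = 2 DKO libraries from RIPmOVA hosts. By the mouse named in the labels, libraries of both genotypes with the same host and replicate number came from the same chimera. Replicates of a group came from different mice.

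In a cell that commits to division, cyclin E with CDK2 helps to free E2F factors from the retinoblastoma family. E2F then drives the genes that load the MCM helicase onto origins and supply deoxynucleotides. Later, the MuvB complex with B-MYB and FOXM1 switches on cyclin B, CDK1, the kinesins and the checkpoint genes of mitosis. Thymocytes divide in bursts before and after rearranging their receptor genes, whereas the single-positive stage is mostly a resting one. In a bulk sample, more cycling cells and more RNA of these genes per cell cannot be told apart.

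Values are RPKM, reads per kilobase of exon scaled to the library's exonic read total, as the authors deposited them. The depth recovered from the RPKM steps was 15520000 to 25050000 reads per library. SP4 markers were high in every library, with Cd4 at 189 to 241 RPKM and Cd3e at 234 to 303 RPKM. The targeted genes did not check the genotype labels: Nr4a1 was 60.1 to 87.7 RPKM in the WT-host libraries of both genotypes and 229 to 282 RPKM in the RIPmOVA-host libraries, and Nr4a3 in RIPmOVA hosts was 5.66 and 3.72 RPKM in OT-II against 16.5 and 14.1 RPKM in DKO-labelled libraries. A value per gene cannot tell reads inside the deleted parts from those outside, so these libraries are called DKO-labelled throughout. OT-II replicate 1 from RIPmOVA hosts stood apart in genes of immature thymocytes, with Ptcra at 2.5 RPKM (at most 0.372 in the others), Rag2 at 0.849 (at most 0.152) and Cd8a at 7.60 RPKM (at most 3.64). It also held the highest summed level of the 6 B cell markers (10.6 RPKM, against 2.79 to 7.66) and of the 8 myeloid markers (21.9 RPKM, against 3.37 to 11.7). Reads on 1490 sensory receptor genes, which T cells are not known to use, stood at 293 to 1497 RPM (reads per library, scaled like RPKM but not by length). In RIPmOVA hosts they were higher in both DKO-labelled libraries (1050 and 1497 RPM) than in both OT-II libraries (555 and 293 RPM), so this and genotype cannot be told apart there. The 90th percentile of these genes there was 0.979 and 1.243 RPKM in the DKO-labelled and 0.391 and 0.131 RPKM in the OT-II libraries. Members at such levels are not clear of this background. In WT hosts the reads on sensory receptor genes did not follow genotype.

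Many of the members' promoters carry the elements by which this gene class is known. RefSeq windows of 300 bases, from 250 before to 50 after the transcription start (GRCm38.p6), were found for 35 of the 42 members. Each was searched on both strands for the CHR element TTTGAA, bound by MuvB complexes, for the CCAAT box CCAAT, bound by NF-Y, and for the E2F element. The E2F element was taken as TTCCCGC, which has C at both of its variable middle positions, or as TTCGCGC, in which the later of these positions is G. Its remaining forms were TTGCCGC, in which the earlier position is G, and TTGGCGC, in which both are. A CCAAT box on the reverse strand can share bases with the E2F form TTGGCGC. The CHR element was in 13 of 18 G2 and mitosis promoters (72.22%) and in 2 of 17 S phase promoters (11.76%), against 20.23% of all 27025 genes with a promoter entry (a gene with several entries counts once). E2F elements were in 11 of 17 S phase promoters (64.71%) and 3 of 18 G2 and mitosis promoters (16.67%), against 10.86% of all these genes. The CCAAT box was in 16 of 18 and 10 of 17 (88.89% and 58.82%), against 41.06% of all these genes. A match is only a run of letters, and no factor binding was measured.

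The 120 bases upstream of the start are shown for Top2a and Kif11, from the mitotic list, and for Hells, Mcm6 and Uhrf1, from the S phase list, because these members are among those whose values are followed below. Each is written 5′ to 3′ on its gene's strand, ending at the base before the start, with matches to the motifs in capitals. Top2a (chr11:99024190-99024309, minus strand) holds CCAAT boxes (ATTGG is the reverse form) and a CHR in its reverse form TTCAAA. Kif11 (chr19:37376262-37376381, plus strand) holds a CCAAT box and a CHR. Hells (chr19:38930870-38930989, plus strand) holds a pair of E2F matches. Mcm6 (chr1:128359706-128359825, minus strand) holds overlapping E2F matches on both strands at 2 places, and CCAAT boxes. Uhrf1 (chr17:56303217-56303336, plus strand) holds an E2F match and a CCAAT box.
Top2a: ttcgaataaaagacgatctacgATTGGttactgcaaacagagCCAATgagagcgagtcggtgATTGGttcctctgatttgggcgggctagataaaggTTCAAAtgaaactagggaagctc
Kif11: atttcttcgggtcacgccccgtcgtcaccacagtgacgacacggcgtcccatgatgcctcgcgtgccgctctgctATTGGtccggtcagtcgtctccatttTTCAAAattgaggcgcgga
Hells: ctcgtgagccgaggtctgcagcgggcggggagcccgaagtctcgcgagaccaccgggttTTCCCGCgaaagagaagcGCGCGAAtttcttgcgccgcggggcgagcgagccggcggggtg
Mcm6: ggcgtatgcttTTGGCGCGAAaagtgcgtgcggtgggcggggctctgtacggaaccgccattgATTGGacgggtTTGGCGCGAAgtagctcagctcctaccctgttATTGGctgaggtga
Uhrf1: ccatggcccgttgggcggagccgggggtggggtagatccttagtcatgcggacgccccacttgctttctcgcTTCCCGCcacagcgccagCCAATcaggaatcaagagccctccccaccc

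Levels differed by list. The 8 members with a mean of at least 10 RPKM over the 9 libraries were all in the S phase list: Mcm2, Mcm3, Mcm4, Mcm5, Mcm6, Mcm7, Pcna and Rrm1. Mcm4, a subunit of the replicative helicase, ranged from 29.2 to 54.4 RPKM, and Pcna, the sliding clamp of the replication polymerases, from 23.7 to 37.0 RPKM. At the other end, 17 members never reached 2 RPKM, of which 12 are G2 and mitosis genes. Cenpf, a large kinetochore protein, lay between 0.064 and 0.529 RPKM, and Ccnb1 (cyclin B1) between 0.184 and 1.11 RPKM. The mitotic kinesin Kif23 had the highest level of its list, at 5.75 to 15.0 RPKM. A test was run on genes with at least 1 RPKM in at least 2 libraries, which 37 of the 42 members passed, and E2f8, Ccnb1, Aurkb, Cenpf and Prc1 did not. E2f8 had as few as 4 reads in a library.

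**Figure D1:**
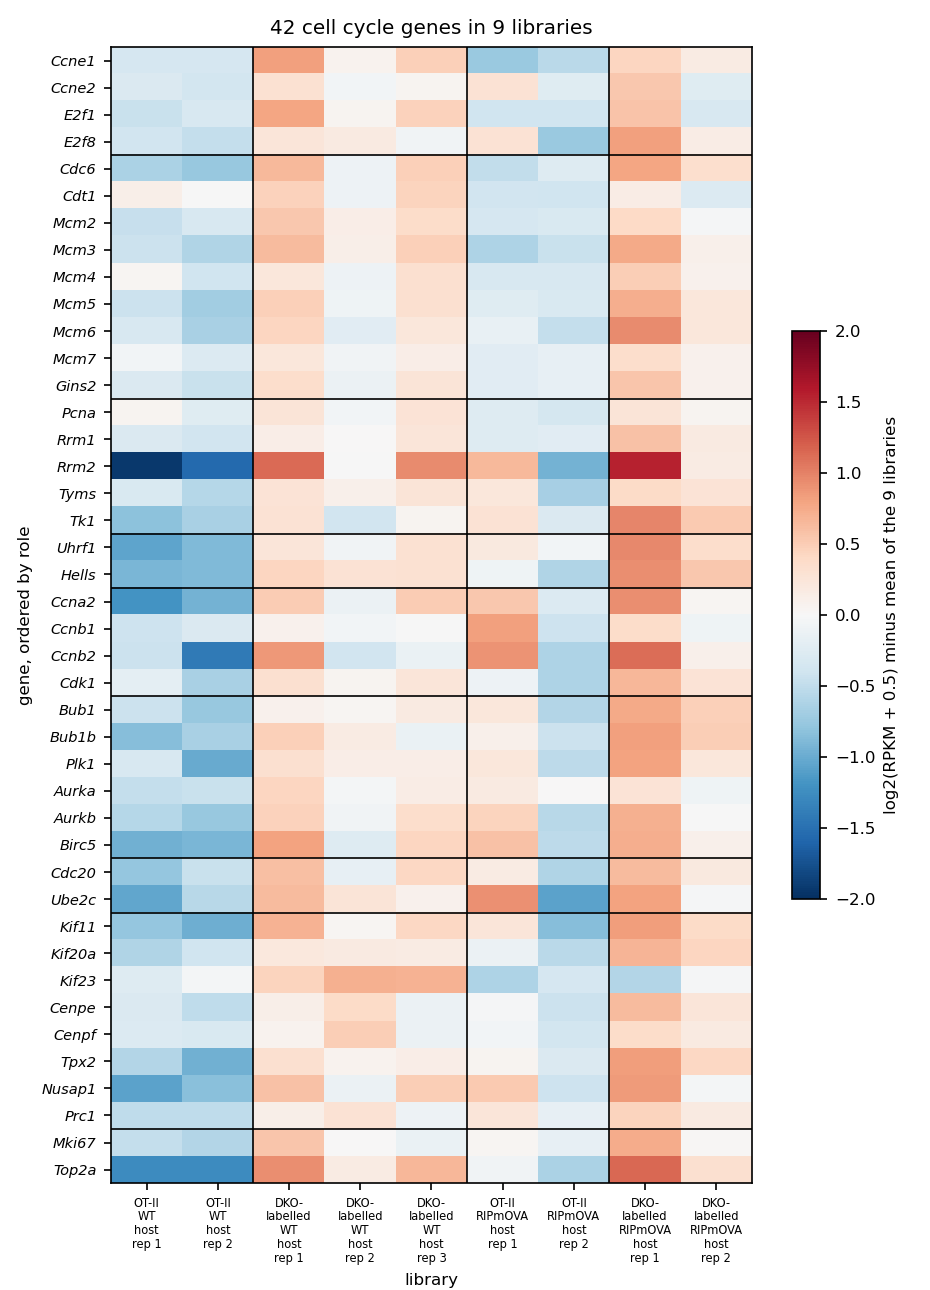
Level of each of the 42 members (rows, grouped by role, with S phase roles above and mitotic roles below) in each of the 9 libraries (columns), as log2(RPKM + 0.5) minus the gene's mean over the 9 libraries. Most cells of the OT-II columns from WT hosts are blue (below the mean), DKO-labelled replicate 1 of either host is mostly red and the other DKO-labelled columns are paler, and OT-II replicate 1 from RIPmOVA hosts is red in many of the mitotic rows.

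The first comparison asked how these genes differed between DKO-labelled and OT-II cells in WT hosts, where the cells meet no ovalbumin. Here the log2 fold change was computed on RPKM + 0.5, with DKO-labelled minus OT-II as the direction. It was above 0 for 42 of 42 members, and for 50.2% of all genes in the table. Its median over the members was 0.75, against 0.00 over all genes in the table and 0.01 over the genes tested. All 3 DKO-labelled libraries lay above both OT-II libraries for 38 of 42 members (16 of 20 in the S phase list and 22 of 22 in the G2 and mitosis list), and 7.73% of all genes in the table and 10.5% of the genes tested did so. The members in which the libraries overlapped were Mcm4, Mcm7, Pcna and Cdt1. A gene was called where the limma adjusted p was at most 0.05 and the log2 fold change was 1 or more in size, and by this rule 0 members were called, and 24 had an unadjusted p below 0.05, each of them higher, as 4.25% of genes tested did in this direction. In the whole comparison 1 of 11569 genes tested was called higher (0.00864%), and 7 either way, so that few genes of any kind were called there. With the chimera as a block the 7 became 2, and without OT-II replicate 2 of the WT hosts they became 100.

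In the RIPmOVA hosts, where the cells meet ovalbumin, 40 of 42 members had a log2 fold change above 0, with a median of 0.60, against 0.15 over all genes in the table and 0.04 over those tested. Both DKO-labelled libraries lay above both OT-II libraries for 28 of 42 members (17 of 20 S phase and 11 of 22 G2 and mitosis genes). Since 47.3% of all genes in the table and 34.6% of the genes tested did the same, this count stands closer to its background than that in WT hosts. Hells was the 1 member called, where 0.51% of genes tested were called higher, and 18 members had an unadjusted p below 0.05 and were higher, against 13.5% of genes tested. The scaling mattered in this comparison. Rescaling by median of ratios shifted the median of all genes tested to -0.17 and left 38 members above 0 (41 above that median), while quantile normalization left 28 above 0 with a median of 0.25. Among all genes, higher calls made up 47.6% of calls as deposited, 30.7% after median-of-ratios rescaling and 31.8% after quantile normalization.

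The 2 genotype comparisons share no library. In both, 24 of 42 members had DKO-labelled libraries above OT-II libraries without overlap (13 in the S phase list, 11 in the G2 and mitosis list), as 4.33% of all genes in the table and 5.66% of the genes tested did. A contrast that averages the genotype difference over both hosts was added after these values were seen. In it, 42 of 42 members were above 0, as were 68.48% of all genes in the table. The median of the members was 0.74, against 0.09 over all genes in the table. Of the members, 31 had an unadjusted p below 0.05 and were higher, against 11.3% of genes tested. Hells and Top2a were called (0.285% of genes tested were called higher), and 10 members passed the adjusted p alone (1.45% of genes tested did so in this direction). These 10 were Ccne1, Mcm2, Mcm3, Mcm5, Rrm1, Uhrf1, Hells, Top2a, Bub1b and Kif20a. Quantile normalization left 38 members above 0, and the share of higher calls among all calls went from 44.0% to 27.8% with median-of-ratios rescaling and 22.6% with quantile normalization.

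**Figure D2:**
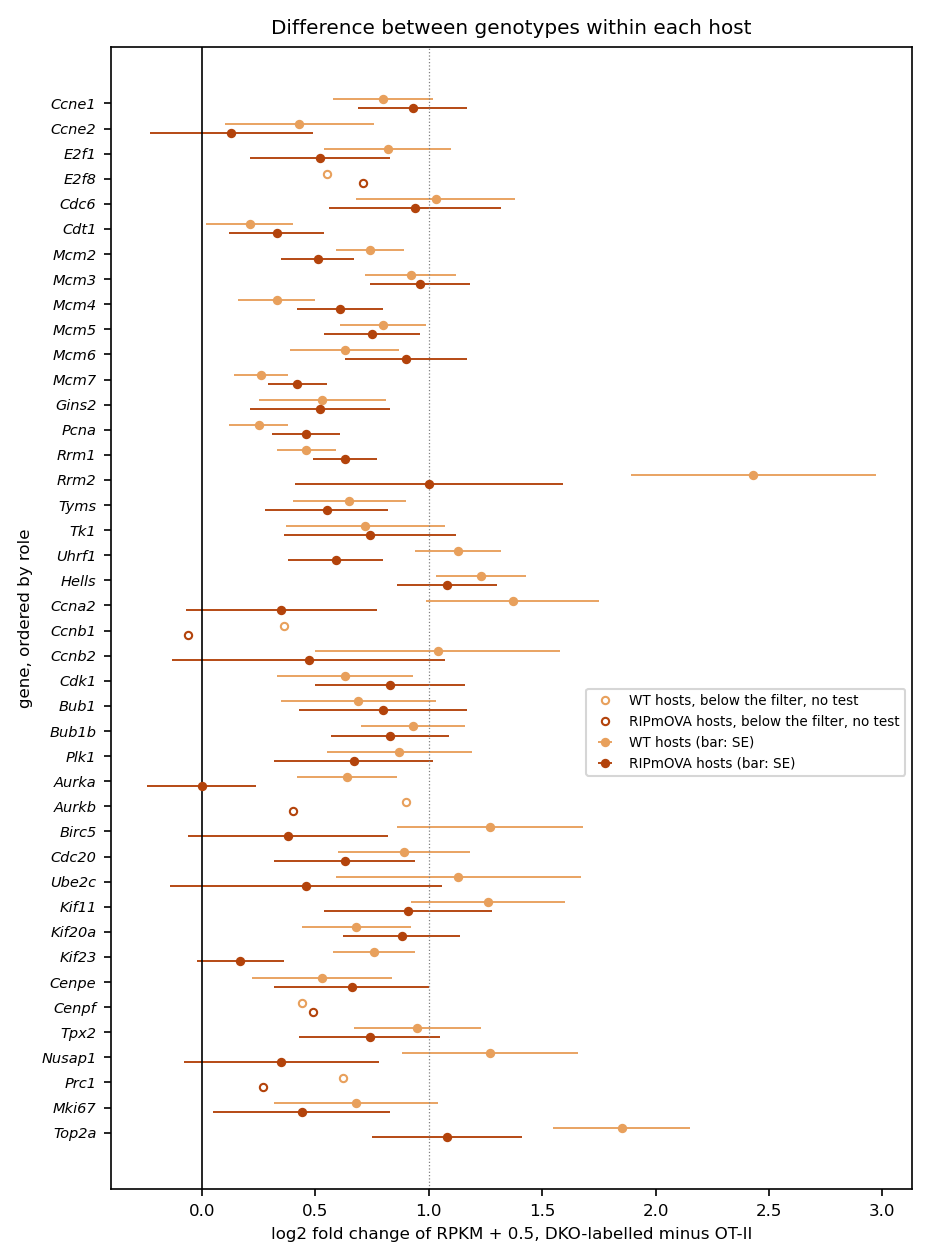
Log2 fold change of RPKM + 0.5 (x axis) of DKO-labelled minus OT-II libraries for each member (y axis), in WT hosts (light points) and RIPmOVA hosts (dark points), with standard errors from limma as bars and open points for the 5 members below the filter. The points in WT hosts all lie right of 0, from 0.21 (Cdt1) to 2.43 (Rrm2), and those in RIPmOVA hosts lie between -0.06 (Ccnb1) and 1.08 (Hells and Top2a).

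Among the regulators of the G1 to S transition, Ccne1 encodes cyclin E1, the partner of CDK2. Ccne1 was 1.85 and 1.86 RPKM in OT-II and 4.78, 2.64 and 3.64 RPKM in the DKO-labelled libraries of WT hosts, and 1.29 and 1.55 against 3.52 and 2.83 RPKM in those from RIPmOVA hosts. The DKO-labelled libraries lay above the OT-II libraries in either host. The log2 fold changes were 0.80 (SE 0.22, limma adjusted p = 0.32) and 0.93 (SE 0.24, adjusted p = 0.080), and 0.87 (SE 0.16, adjusted p = 0.024) averaged over hosts. E2f1, an activating E2F, was 1.70 and 1.91 against 4.70, 2.62 and 3.63 RPKM in WT hosts, again without overlap, while in RIPmOVA hosts DKO-labelled replicate 2 (1.91 RPKM) lay just above the OT-II libraries (1.78 and 1.77 RPKM). Ccne2, the other cyclin E, overlapped in RIPmOVA hosts, with 1.02 and 0.557 RPKM in OT-II and 1.30 and 0.559 RPKM in DKO-labelled libraries.

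The 9 genes of origin licensing and the helicase were above 0 in both hosts, with medians of 0.63 in WT and 0.61 in RIPmOVA hosts. Mcm3, a helicase subunit, was 10.7 and 9.41 RPKM in OT-II and 22.8, 15.9 and 20.4 RPKM in the DKO-labelled libraries of WT hosts, and 9.32 and 10.6 against 25.0 and 15.6 RPKM in RIPmOVA hosts. The level of OT-II libraries was much the same in either host, and each DKO-labelled library stood above all 4 of them. Mcm6, another subunit, was 21.1 and 16.6 against 35.8, 22.5 and 31.2 RPKM in WT hosts and 23.8 and 18.9 against 51.7 and 31.1 RPKM in RIPmOVA hosts. Its groups did not overlap in either host, and it averaged 0.77 (SE 0.18, limma adjusted p = 0.057). Averaged over hosts the log2 fold change of Mcm3 was 0.94 (SE 0.15, limma adjusted p = 0.014), that of Mcm5 was 0.78 (SE 0.14, adjusted p = 0.022) and that of Mcm2 was 0.62 (SE 0.11, adjusted p = 0.021). The same average was 0.47 (SE 0.13, adjusted p = 0.091) for Mcm4 and 0.34 (SE 0.09, adjusted p = 0.086) for Mcm7. Exons of Mcm7 also hold Mir25 and Mir93 and overlap those of Ap4m1 and Cops6. Cdc6, the helicase loader, was far lower at 0.194 and 0.135 RPKM in OT-II and 1.18, 0.5 and 0.996 RPKM in the DKO-labelled libraries of WT hosts, and 0.265 and 0.395 against 1.36 and 0.857 RPKM in RIPmOVA hosts. Its groups did not overlap in either host, and the average was 0.99 (SE 0.26, adjusted p = 0.077). Cdt1, its partner in loading, had an average difference of 0.27 (SE 0.14, adjusted p = 0.32), and its libraries overlapped in WT hosts.

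Rrm2, the S phase subunit of ribonucleotide reductase, had the largest log2 fold change of any member in WT hosts. It was 0.554 and 0.874 RPKM in OT-II and 8.30, 3.49 and 7.24 RPKM in the DKO-labelled libraries of WT hosts, but 5.82 and 1.59 against 11.2 and 3.99 RPKM in RIPmOVA hosts. The RIPmOVA groups overlapped, as OT-II replicate 1, the library with most Ptcra and Rag2, lay above DKO-labelled replicate 2. The log2 fold change was 2.43 (SE 0.54, limma adjusted p = 0.18) in WT hosts and 1.00 (SE 0.59, adjusted p = 0.35) in RIPmOVA hosts. The average over hosts was 1.71 (SE 0.40, adjusted p = 0.055), and with the chimera as a block it was 1.65 (adjusted p = 0.036), which would be called. Over all alternatives the adjusted p of that average ran from 0.036 to 0.16. Rrm1, the large subunit, had differences of 0.46 (SE 0.13) and 0.63 (SE 0.14) with standard errors well below those of Rrm2, and its average of 0.54 (SE 0.10) had an adjusted p of 0.021. The thymidine kinase gene Tk1 stayed at or below 1.71 RPKM, without overlap between genotypes in either host. Pcna differed by 0.25 (SE 0.13) in WT and 0.46 (SE 0.15) in RIPmOVA hosts.

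Hells and Uhrf1 encode proteins that act with DNA methylation at replication forks, a chromatin remodeller and a reader of hemimethylated DNA. Hells (Entrez 15201, GRCm38 chromosome 19, 38930915 to 38971051, protein-coding) was 0.868 and 0.898 RPKM in OT-II and 2.98, 2.63 and 2.66 RPKM in the DKO-labelled libraries of WT hosts. In RIPmOVA hosts it was 1.91 and 1.19 against 4.40 and 3.21 RPKM. DKO-labelled libraries were higher without overlap in either host. Its log2 fold change was 1.23 (SE 0.20, limma adjusted p = 0.098) in WT hosts, 1.08 (SE 0.22, adjusted p = 0.042) in RIPmOVA hosts, and 1.16 (SE 0.15, adjusted p = 0.0059) on average. The call in RIPmOVA hosts was lost with the chimera as a block (adjusted p = 0.061) and with the sensory receptor reads as a covariate (adjusted p = 0.40), and over all alternatives its adjusted p ranged from 0.020 to 0.40. It held without either OT-II library of the WT hosts and was lost without each of the other 7 libraries, with adjusted p-values of 0.059 to 0.21. On average over hosts, the call for Hells held in 19 of 20 alternatives, with an adjusted p of at most 0.035, and was lost with a pseudocount of 1, where the log2 fold change was 0.96.

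Uhrf1 (Entrez 18140, chromosome 17, 56303321 to 56323486) was 2.91 and 3.37 RPKM in OT-II and 7.94, 6.32 and 8.34 RPKM in the DKO-labelled libraries of WT hosts, and 7.63 and 6.34 against 13.4 and 8.59 RPKM in RIPmOVA hosts. OT-II cells from RIPmOVA hosts were thus at the level of DKO-labelled cells from WT hosts, and both lay above OT-II cells from WT hosts. Uhrf1 was the 1 member called for the host in OT-II cells, at 1.04 (SE 0.21, limma adjusted p = 0.044), where 1.05% of genes tested were called higher. The adjusted p ranged from 0.019 to 0.33 over the alternatives, and the call held in 7 of 22 of them. It held without OT-II replicate 2 of the WT hosts or either DKO-labelled library of the RIPmOVA hosts, and was lost without each of the other 6 libraries, with the highest adjusted p (0.33) without OT-II replicate 1 of the RIPmOVA hosts.

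**Figure D3:**
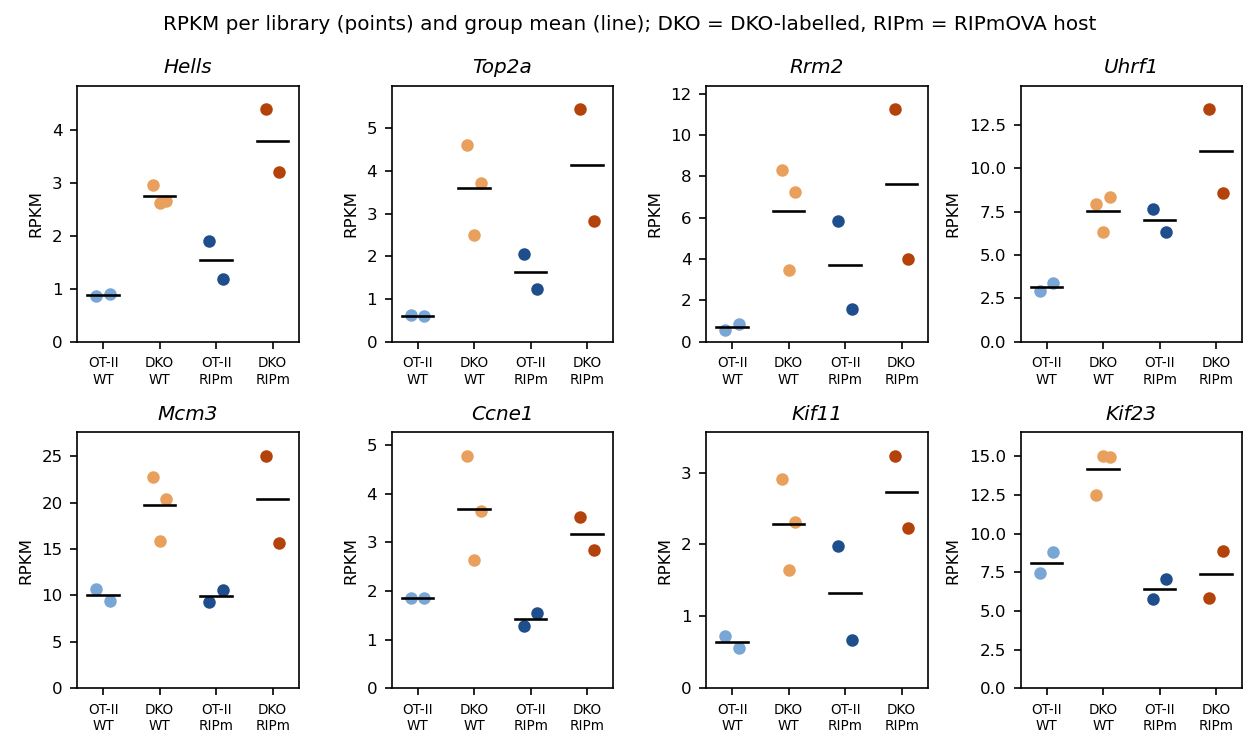
RPKM of 8 members (y axis, from 0) in each library (points) of the 4 groups (x axis), with the group mean as a line. Hells, Top2a, Uhrf1, Mcm3, Ccne1 and Kif11 are higher in the DKO-labelled than in the OT-II groups of either host without overlap, Rrm2 overlaps in RIPmOVA hosts, and Kif23 is highest in the DKO-labelled libraries from WT hosts (12.5 to 15.0 RPKM).

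In the G2 and mitosis list, Top2a encodes the topoisomerase that untangles sister chromatids. Top2a (Entrez 21973, chromosome 11, 98992943 to 99024189) was 0.618 and 0.614 RPKM in OT-II and 4.60, 2.5 and 3.73 RPKM in the DKO-labelled libraries of WT hosts. In RIPmOVA hosts it was 2.06 and 1.24 against 5.44 and 2.84 RPKM. Its groups did not overlap in either host, with log2 fold changes of 1.85 (SE 0.30, limma adjusted p = 0.099) in WT and 1.08 (SE 0.33, adjusted p = 0.12) in RIPmOVA hosts. The average of 1.46 (SE 0.23, adjusted p = 0.012) was called, and over the alternatives its adjusted p ranged from 0.010 to 0.056, with the call lost without OT-II replicate 2 of the RIPmOVA hosts. Mki67, which encodes the Ki-67 antigen of cycling cells, reached 1.31 RPKM at most and differed by 0.68 (SE 0.36, adjusted p = 0.71) and 0.44 (SE 0.39, adjusted p = 0.54).

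Of the mitotic cyclins and their kinase, Cdk1 was 0.585 and 0.287 against 1.05, 0.793 and 0.964 RPKM in WT hosts and 0.653 and 0.311 against 1.46 and 1.00 RPKM in RIPmOVA hosts, without overlap in either. The cyclins did not separate in RIPmOVA hosts. Ccna2 (cyclin A2) was 0.092 and 0.207 RPKM in OT-II and 1.44, 0.750 and 1.43 RPKM in the DKO-labelled libraries of WT hosts, but 1.48 and 0.632 against 2.10 and 0.904 RPKM in RIPmOVA hosts. Ccnb2 (cyclin B2) was 1.39 and 0.453 against 4.15, 1.46 and 1.82 RPKM, and 4.28 and 1.16 against 5.01 and 2.24 RPKM. For both cyclins, OT-II replicate 1 from RIPmOVA hosts lay above DKO-labelled replicate 2 from the same hosts. Ccna2 shares exon sequence positions with Exosc9 on the other strand.

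The 6 checkpoint and kinase genes had a median log2 fold change of 0.88 in WT hosts and 0.54 in RIPmOVA hosts. Bub1b, which encodes the checkpoint protein BUBR1, was 1.05 and 1.29 RPKM in OT-II and 3.41, 2.67 and 2.07 RPKM in the DKO-labelled libraries of WT hosts, and 2.52 and 1.58 against 4.49 and 3.47 RPKM in RIPmOVA hosts. No library overlapped, and the average difference was 0.88 (SE 0.17, limma adjusted p = 0.031). Bub1 and Plk1, a checkpoint kinase and the polo-like kinase, did not overlap in either host and averaged 0.75 (SE 0.25, adjusted p = 0.15) and 0.77 (SE 0.24, adjusted p = 0.12). Aurka, the centrosomal Aurora kinase, differed by 0.64 (SE 0.22) in WT hosts and by 0.00 (SE 0.24) in RIPmOVA hosts, where its libraries overlapped. Birc5 (survivin) was 0.355 and 0.384 RPKM in OT-II and 2.43, 0.903 and 1.76 RPKM in the DKO-labelled libraries of WT hosts, a difference of 1.27 (SE 0.41, adjusted p = 0.43).

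Cdc20 and Ube2c serve the anaphase-promoting complex as activator and ubiquitin-conjugating enzyme. Cdc20 was 1.71 and 2.28 against 5.21, 2.87 and 4.57 RPKM in WT hosts, and 3.72 and 1.99 against 5.33 and 3.81 RPKM in RIPmOVA hosts. It did not overlap in either host, although OT-II replicate 1 (3.72 RPKM) came close to DKO-labelled replicate 2 (3.81 RPKM) in RIPmOVA hosts. Cdc20 shares exon positions with Elovl1 on the other strand. Ube2c was 0.116 and 0.359 against 1.48, 1.02 and 0.848 RPKM in WT hosts, while in RIPmOVA hosts OT-II replicate 1 had the highest level of all libraries (1.90 RPKM) and replicate 2 the lowest (0.104 RPKM).

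Of the 8 spindle and kinetochore genes, all had DKO-labelled libraries above OT-II libraries in WT hosts, as 7.73% of all genes in the table did. In RIPmOVA hosts 5 of the 8 did so, against 47.3% of all genes in the table. Kif11, the motor that separates the spindle poles, was 0.730 and 0.562 against 2.91, 1.65 and 2.31 RPKM in WT hosts and 1.98 and 0.665 against 3.23 and 2.23 RPKM in RIPmOVA hosts. The difference was 1.26 (SE 0.34, limma adjusted p = 0.31) and 0.91 (SE 0.37, adjusted p = 0.20), and averaged 1.09 (SE 0.25, adjusted p = 0.052). Kif20a, a kinesin of cytokinesis, was 0.510 and 0.654 against 1.26, 1.23 and 1.20 RPKM, and 0.898 and 0.552 against 1.94 and 1.55 RPKM, with no overlap and an average of 0.78 (SE 0.17, adjusted p = 0.048). Exons of Kif20a overlap those of Cdc23 on the other strand. Cenpe, Cenpf and Tpx2 were also without overlap in both hosts, at levels of at most 1.78 RPKM. In RIPmOVA hosts Cenpf was 0.202 and 0.064 RPKM in OT-II against 0.442 and 0.327 RPKM in DKO-labelled libraries. These values lie within the range of the sensory receptor background of the same libraries.

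Kif23 is the kinesin of the central spindle. Kif23 (Entrez 71819, chromosome 9, 61915905 to 61946774) was 7.45 and 8.82 RPKM in OT-II and 12.5, 15.0 and 15.0 RPKM in the DKO-labelled libraries of WT hosts, and 5.75 and 7.08 against 5.85 and 8.89 RPKM in RIPmOVA hosts. The 3 DKO-labelled libraries from WT hosts stood above all others. Between hosts, DKO-labelled libraries differed by -0.92 (SE 0.18, limma adjusted p = 0.025), which passed the adjusted p but not the fold threshold, and Kif23 was the 1 member with an adjusted p of 0.05 or less in that comparison, where 3.35% of genes tested had one. Over the alternatives the adjusted p ranged from 0.010 to 0.20. The difference was also past the fold threshold with median-of-ratios rescaling (-1.09, adjusted p = 0.015) and without DKO-labelled replicate 2 of the RIPmOVA hosts (-1.20, adjusted p = 0.010), and was -0.64 (adjusted p = 0.19) without replicate 1. The interaction of host and genotype was -0.60 (SE 0.26, adjusted p = 0.53). After centring on group means, the correlation of Kif23 with the other members across the 9 libraries was below 0 for 41 of 41, with a median of -0.74, while the median over all 861 pairs of members was 0.65. These correlations rest on 9 libraries in 4 groups, share library and depth, and are given as a description.

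**Figure D4:**
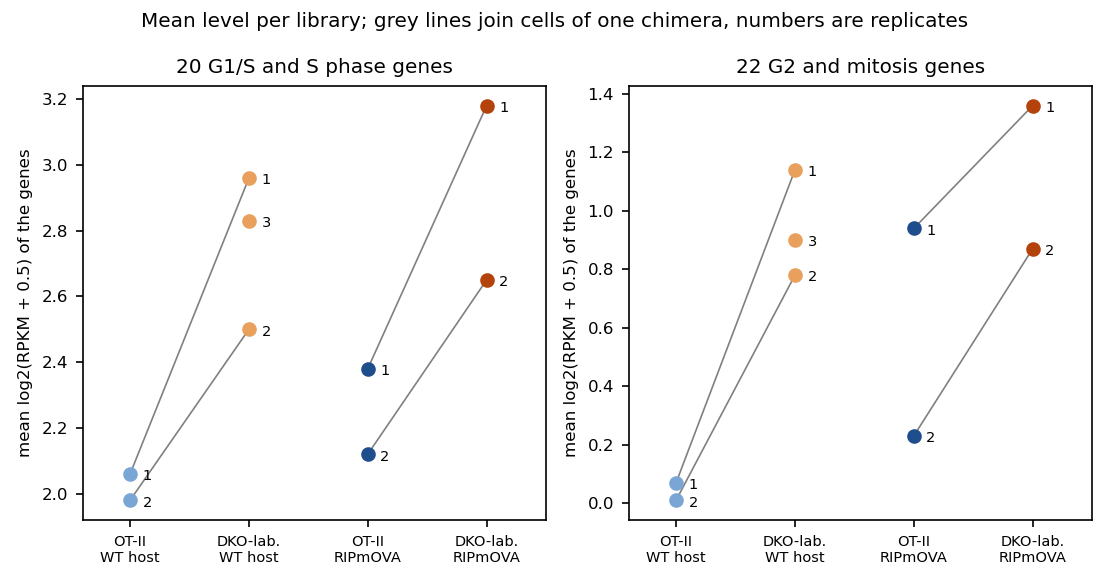
Mean of log2(RPKM + 0.5) over the 20 S phase genes (left) and the 22 G2 and mitosis genes (right) in each library (points with replicate numbers), by group (x axis), with grey lines joining the libraries of a chimera. Every line runs upward from OT-II to DKO-labelled cells, and the left panel runs from 1.98 to 3.18 and the right panel from 0.01 to 1.36.

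Within each chimera the difference had the same direction in most members. In WT hosts, DKO-labelled cells were above the OT-II cells of the same mouse for 42 of 42 members in chimera 1 and 41 of 42 in chimera 2, and in RIPmOVA hosts for 40 and 41 of 42. Of all genes tested, 46.81%, 53.82%, 54.93% and 56.6% were so in these 4 mice. The mean log2 level of the S phase genes was 2.06 and 1.98 in OT-II against 2.96, 2.5 and 2.83 in the DKO-labelled libraries of WT hosts, and 2.38 and 2.12 against 3.18 and 2.65 in RIPmOVA hosts. These do not overlap in either host. For the G2 and mitosis genes the same means were 0.07 and 0.01 against 1.14, 0.78 and 0.90 in WT hosts, and 0.94 and 0.23 against 1.36 and 0.87 in RIPmOVA hosts, where OT-II replicate 1 lay above DKO-labelled replicate 2.

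Replicates of some groups also differed as a block. Those of OT-II cells from WT hosts did not, as replicate 1 exceeded replicate 2 for 24 of 42 members, against 55.31% of genes tested. In RIPmOVA hosts, DKO-labelled replicate 1 exceeded replicate 2 for 41 of 42 members with a median log2 difference of 0.45, where 43.41% of genes tested did so. In WT hosts, DKO-labelled replicate 1 exceeded replicate 2 for 38 of 42 (45.49% of genes tested). OT-II replicate 1 from RIPmOVA hosts exceeded replicate 2 for 21 of 22 G2 and mitosis genes, with a median log2 difference of 0.65. For the S phase genes it did so in 13 of 20, with a median of 0.04. Of the genes tested, 52.48% were higher in that replicate 1. Without that library, the genotype difference in RIPmOVA hosts had a median of 0.85 with 42 of 42 members above 0, and without OT-II replicate 2 it had a median of 0.40 with 33 above 0. The part of the immature thymocyte RNA of that library in its mitotic gene levels was not tested.

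The host comparisons set cells from RIPmOVA hosts, which express ovalbumin, against cells of the same genotype from WT hosts, which do not. By the labels these hosts also differed in background, so antigen and host background cannot be told apart. In OT-II cells, 34 of 42 members had a log2 fold change above 0 for RIPmOVA against WT hosts (21 of 22 in G2 and mitosis, 13 of 20 in S phase). Of all genes in the table, 36.96% did so. The median of the members was 0.37, against -0.03 over all genes in the table. The RIPmOVA libraries lay above the WT libraries for 19 members, against 12.8% of all genes in the table, and below them for 4 (Ccne1, Pcna, Cdt1 and Kif23), against 19.2% of all genes in the table. The median was 0.09 without OT-II replicate 1 and 0.66 without replicate 2 of the RIPmOVA group, the first being the library with most Ptcra and Rag2. In DKO-labelled cells 35 of 42 members were above 0, as were 67.98% of all genes in the table. The median was 0.16 against 0.12 over all genes in the table, and 0 members were called (1.52% of genes tested were called higher). Of the members, 2 had an unadjusted p below 0.05 in either direction, against 17.6% of genes tested. The RIPmOVA libraries lay above the WT libraries for 7 of 42, against 28.9% of all genes in the table. Median-of-ratios rescaling, which moved the median of all genes tested to -0.13, left 23 and quantile normalization 20 of 42 members above 0 there, with medians of 0.05 and -0.08, so the direction of the DKO-labelled host difference depended on the scaling. The share of higher calls among all calls was 90.7% as deposited, 77.8% and 77.7%. For the interaction, 0 members were called (2 of 11569 genes tested were, 0.0173%), and 1 had an unadjusted p below 0.05 (Kif23, against 9.32% of genes tested). Above 0 were 15 of 42 members (35.71%), against 66.86% of all genes in the table and 54.74% of those tested. The median was -0.18, against 0.14 and 0.03. Without OT-II replicate 2 of the WT hosts 159 genes were called for the interaction, and with the chimera as a block 0 were.

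The rest of the machinery was read from lists of further genes. Of 44 other replication genes, 38 in WT and 39 in RIPmOVA hosts had a log2 fold change above 0 between DKO-labelled and OT-II cells, with medians of 0.30 and 0.32. Over all genes in the table, 50.2% in WT and 68.33% in RIPmOVA hosts were above 0, with medians of 0.00 and 0.15. Pole, the catalytic subunit of the leading-strand polymerase, was 0.384 and 0.359 RPKM in OT-II and 1.88, 1.42 and 1.36 RPKM in the DKO-labelled libraries of WT hosts, and 0.466 and 0.410 against 2.40 and 1.51 RPKM in RIPmOVA hosts. The groups stood well apart in both hosts. Pole was called in RIPmOVA hosts at 1.37 (SE 0.28, limma adjusted p = 0.043) and on average at 1.30 (SE 0.19, adjusted p = 0.010). Prim1, a primase subunit, was 3.59 and 2.58 against 5.71, 4.49 and 5.95 RPKM in WT hosts and 2.62 and 2.58 against 6.17 and 5.27 RPKM in RIPmOVA hosts, and was called there at 1.00 (SE 0.18, adjusted p = 0.027). The other 42 replication genes were not called in a genotype comparison.

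Of 47 other mitosis genes, 42 in WT (89.36%) and 38 in RIPmOVA hosts (80.85%) were above 0, with medians of 0.37 and 0.44. The shares over all genes in the table were 50.2% and 68.33%. Spc24, a kinetochore subunit, was 0.474 and 0.704 against 1.68, 1.17 and 1.57 RPKM in WT hosts and 0.800 and 0.451 against 2.52 and 1.51 RPKM in RIPmOVA hosts, without overlap, and was called on average at 1.00 (SE 0.21, limma adjusted p = 0.036). Smc4, a condensin subunit, ran the other way in WT hosts. Smc4 was 65.6 and 32.8 RPKM in OT-II and 16.5, 14.1 and 15.8 RPKM in the DKO-labelled libraries of WT hosts, but 78.3 and 73.0 against 79.2 and 60.6 RPKM in RIPmOVA hosts. Its DKO-labelled libraries from WT hosts were the lowest of all 9, and the host difference in DKO-labelled cells was called at 2.13 (SE 0.24, adjusted p = 0.0022), while the difference between genotypes in WT hosts was -1.56 (SE 0.24, adjusted p = 0.086).

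**Figure D5:**
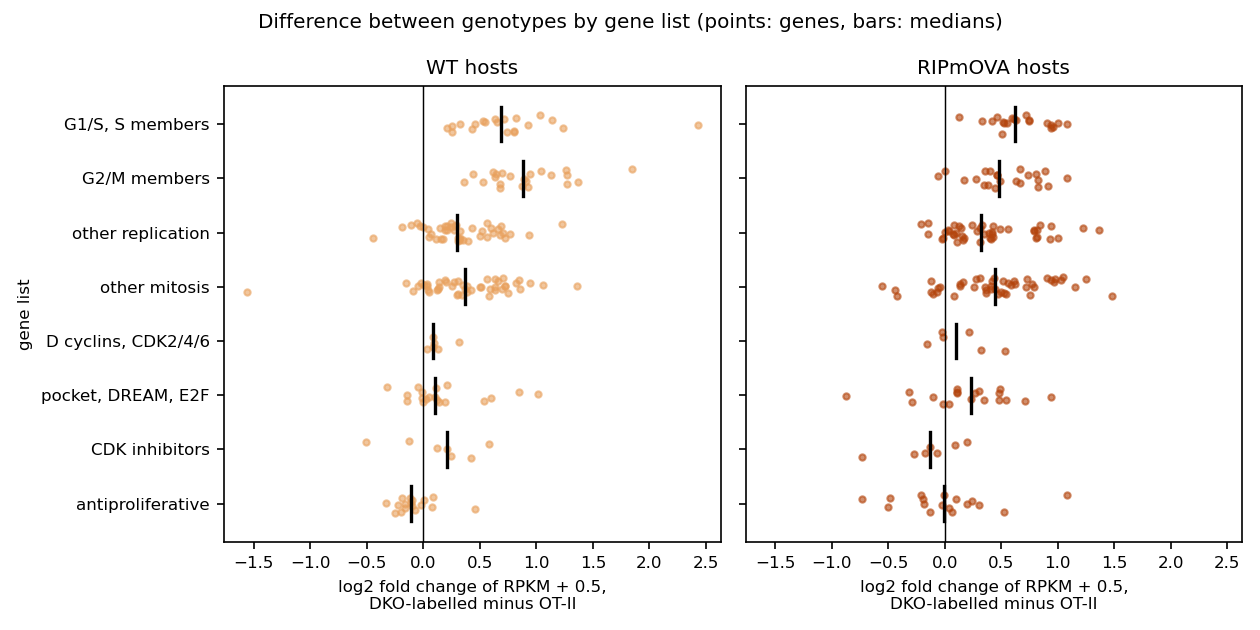
Log2 fold change of RPKM + 0.5 of DKO-labelled minus OT-II libraries (x axis) for every gene (points) of the 2 member lists and 6 further lists (y axis), in WT hosts (left) and RIPmOVA hosts (right), with list medians as bars. The medians of the member lists (0.68 and 0.88 in WT hosts, 0.62 and 0.48 in RIPmOVA hosts) lie right of those of the CDK inhibitor list (0.21 and -0.13) and the antiproliferative list (-0.11 and 0.00).

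Among the D cyclins and their kinases, Ccnd2 (cyclin D2) was 61.4 to 114 RPKM and Cdk6 was 1.89 to 4.29 RPKM, with 0 of the 5 tested genes called in any comparison. Of the 7 CDK inhibitor genes, 3 passed the filter and 0 were called. Cdkn1b, which encodes p27, was 3.54 and 2.44 RPKM in OT-II and 2.09, 1.82 and 1.86 RPKM in the DKO-labelled libraries of WT hosts, a difference of -0.51 (SE 0.22, limma adjusted p = 0.61), and it overlapped in RIPmOVA hosts. Cdkn2c, which encodes p18, was 0.707 and 0.690 RPKM in OT-II and 1.785, 0.912 and 1.299 RPKM in the DKO-labelled libraries of WT hosts. It was thus higher there without overlap, opposite in direction to Cdkn1b. In RIPmOVA hosts it overlapped, at 1.652 and 2.178 against 1.850 and 1.176 RPKM. Of the 19 genes of the pocket protein, DREAM and E2F group, 0 were called. E2f2, an activating E2F, differed by 1.01 (SE 0.28, adjusted p = 0.34) and 0.71 (SE 0.31, adjusted p = 0.23) in WT and RIPmOVA hosts, and Mybl2, which encodes B-MYB, by 0.60 (SE 0.33, adjusted p = 0.71) and 0.94 (SE 0.36, adjusted p = 0.19). Rbl2, the gene of the repressive pocket protein p130 and named here after its values were seen, was 18.9 and 20.1 against 32.4, 37.3 and 37.3 RPKM in WT hosts and 21.4 and 23.6 against 31.0 and 32 RPKM in RIPmOVA hosts. It was higher in DKO-labelled libraries without overlap, with 0.85 (SE 0.09, adjusted p = 0.013) in WT hosts and 0.66 (SE 0.07, adjusted p = 0.0025) on average, under the fold threshold.

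Of the 17 antiproliferative genes, 0 were called between genotypes and 2 between hosts. Gadd45b, a stress sensor of the GADD45 family, was 1.43 to 2.10 RPKM in the 5 libraries from WT hosts and 35.4 to 52.7 RPKM in the 4 from RIPmOVA hosts, with log2 fold changes of 4.26 (SE 0.19, limma adjusted p = 1.7e-05) in OT-II and 4.31 (SE 0.17, adjusted p = 1.2e-05) in DKO-labelled cells. Gadd45g was called in DKO-labelled cells at 2.11 (SE 0.30, adjusted p = 0.0071). Markers of other cells were also set beside the genotype difference. Of the 10 genes marking earlier thymocytes, 2 in WT and 3 in RIPmOVA hosts were above 0, against 50.2% and 68.33% of all genes in the table. The summed level of these 10 genes was 156 to 165 RPKM in OT-II and 154 to 158 RPKM in the DKO-labelled libraries of WT hosts. In RIPmOVA hosts it was 152 to 181 against 141 to 168.9 RPKM. Il2ra and Kit, both of that list, were called higher in RIPmOVA hosts in both genotypes. Of the 4 erythroid markers, the 6 B cell, the 8 myeloid and the 7 epithelial markers, 0 were called between genotypes. Between hosts, the epithelial marker Epcam was called in DKO-labelled cells at 1.47 (SE 0.24, limma adjusted p = 0.013), with 2.24 to 4.42 RPKM in all libraries of WT hosts and 4.66 to 10.2 RPKM in those of RIPmOVA hosts, and the other 6 epithelial markers stayed at or below 1.11 RPKM. Summed epithelial markers were 5.07 and 7.31 RPKM in OT-II and 12.1 and 8.29 RPKM in the DKO-labelled libraries of RIPmOVA hosts, and their part in the genotype difference was not tested.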

How the data were processed

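RNA of sorted OT-II SP4 thymocytes was sequenced in 9 libraries. By the study's methods, low-input cDNA was aligned to mm10 with STAR against GENCODE vM17, Picard duplicates were dropped and exonic reads were summed per Entrez gene. The values the authors deposited are RPKM, rounded to 3 decimals. Use of strand is not given in the sources used here, so 13 members whose exons overlap another gene are uncertain.

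Each low RPKM value is a whole multiple of the worth of a read, which gave the depth, and 100% of them came out whole within 0.12 reads. The floor of 3 reads was 0.12 to 0.193 RPKM for a gene of 1 kb and covers counting error only. The 11569 genes kept (at least 1 RPKM in at least 2 libraries) were fitted as log2(RPKM + 0.5) with limma 3.58.1 in R 4.3.3, with group means over all 9 libraries, an intensity trend and Benjamini-Hochberg adjustment over these genes (two-sided). This scale understates the change of low genes. The code was tested on simulated data. Tables and plots were made in Python 3.11.15 with numpy 2.4.6, pandas 2.3.3 and matplotlib 3.10.9.

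The members and lists were chosen with earlier results of these data known. Beyond the members, genes called were named, or else the 2 of a list with the largest change. Trbc1, Trbc2, Sgol1 and 2 erythroid markers had no entry. Alternatives covered the pseudocount (0.1 or 1), the filter (none, or RPKM 5), the scaling (median of ratios or quantile), a fit to only the groups compared, no trend, adjusted p alone, a replicate block by chimera or by number, a sensory receptor covariate, voom on the recovered reads and leaving out each library. The labels name the chimera of each library, which pairs the genotypes within a mouse, and DKO-labelled replicate 3 of the WT hosts has no partner and drops out of blocked genotype fits. Deviations from group means correlated at 0.01 and -0.24 within the WT chimeras and at -0.08 within each RIPmOVA chimera. In a group of 2 libraries these deviations are equal and opposite, so both RIPmOVA chimeras give the same value by construction. That value is therefore not repeated evidence on the pairing.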

Additional observations from a re-analysis of the deposited data

How the results depend on the processing

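With 2 or 3 libraries a group, calls of single members were few and unstable, and a count of 0 or 1 called says little. The count of members called for the host in OT-II cells went from 1 to 0 with a pseudocount of 1, no filter, either rescaling, the compared groups only, no trend, the block by replicate number, the covariate or voom, and lay between 0 and 1 when a library was left out, with a median member change of 0.09 to 0.66. In DKO-labelled cells it went from 0 to 1 with median-of-ratios rescaling and on adjusted p alone, and was 0 to 1 without a library, with a median of -0.04 to 0.46. For genotype in RIPmOVA hosts it went from 1 to 0 with a pseudocount of 1, no filter, the filter at RPKM 5, either rescaling, the compared groups only, both replicate blocks and the covariate, to 2 with voom, and was 0 to 1 without a library. The median there was 0.25 after quantile normalization. For genotype in WT hosts 1 member was called after median-of-ratios rescaling and 0 to 1 without a library, and voom gave a median of 1.2. The median interaction was -0.53 after quantile normalization and -0.36 to 0.11 without a library. The genotype difference averaged over hosts had 2 members called, against 6 with a pseudocount of 0.1, 1 with a pseudocount of 1, 1 with the filter at RPKM 5, 10 on adjusted p alone, 4 with the covariate, 8 with voom and 1 to 5 without a library, and a median of 1.12 with voom. Hells (at most 4.40 RPKM) and Top2a did not pass the filter at RPKM 5 and were not tested there. The 1 member called on average with that filter was Rrm2. The cause of the other shifts was not tested.

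Of the genotype differences of single members, 0 turned in WT hosts under any alternative. Of the 37 members tested, those that turned did so in RIPmOVA hosts, and Ccne2 also on average over hosts. With the untested members counted, 38 of 42 averages were above 0 after quantile normalization and 41 of 42 without OT-II replicate 2 of the RIPmOVA hosts. Quantile normalization turned Ccne2 (-0.56), Gins2 (-0.15), Mki67 (-0.29), Ccna2 (-0.24), Birc5 (-0.10), Cenpe (-0.11), Nusap1 (-0.26) and Ube2c (-0.29), and Ccne2 on average over hosts (-0.13). Median-of-ratios rescaling turned Ccne2 (-0.01) and Kif23 (-0.05). Aurka, at 0.00, was 0.00 with a pseudocount of 1, 0.19 with the covariate and 0.04 with voom. Leaving out a library gave ranges of -0.18 to 0.18 for Aurka, -0.17 to 0.94 for Birc5, -0.09 to 0.80 for Ccna2, -0.30 to 1.23 for Ccnb2, -0.26 to 0.51 for Ccne2, -0.12 to 0.45 for Kif23, -0.12 to 0.82 for Nusap1 and -0.54 to 1.45 for Ube2c.

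Over all genes, calls ranged from 31 to 296 for the host in OT-II cells (142 in the reported fit), 87 to 387 in DKO-labelled cells (194), 18 to 256 for genotype in RIPmOVA hosts (124), 2 to 100 in WT hosts (7), 0 to 159 for the interaction (2) and 46 to 382 for genotype averaged over hosts (75). The replicate block by chimera gave 97 calls for genotype in RIPmOVA hosts, 2 in WT hosts and 54 on average, where it added Rrm2 to Hells and Top2a. It took away the call of Hells in RIPmOVA hosts and changed no other call of a member. The highest counts for the host in OT-II cells, genotype in WT hosts and the interaction were those without OT-II replicate 2 of the WT hosts.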
